A study of Mus musculus with 45 samples.

Results

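The comparison described here sets the livers of mice fed a high-fat diet (HFD) for 16 weeks against the livers of mice kept on standard chow, both taken 30 min after an injection of insulin. It holds 9 of the 45 sequenced samples, 6 HFD and 3 chow, chosen by their labelled diet and time point. Of 23227 genes in the count tables, 14067 had enough reads to be tested.

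All animals were C57BL/6J wild type mice, 24 weeks old at collection and fasted overnight, and insulin was given into the peritoneum at 1 U per kg. The HFD was begun at 8 weeks of age, and neither group received metformin, which was given to other animals of the study. Groups without insulin, with 3 chow and 3 HFD samples, and groups taken at 15, 60 and 120 min serve below to show where the 30 min comparison differs. RNA came from whole liver, so a lower level of a gene can mean fewer cells of a type or less RNA per cell, and these cannot be told apart. The labels do not link each sample to an animal, so the p-values measure the spread between these samples, which may be partly technical.

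Insulin reaches the liver through the portal vein and binds the insulin receptor on hepatocytes. The receptor acts through insulin receptor substrates and the kinase Akt to exclude FoxO factors from the nucleus, which lowers genes of glucose production, and to raise Srebf1, which drives lipid synthesis. Prolonged high-fat feeding in mice is a model of obesity with fatty liver and insulin resistance, in which the liver also takes up macrophages and lays down matrix.

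The 9 libraries held 18193181 to 27969206 counted reads each. The first principal component of the 9 libraries took 48.1% of the variance and separated the diets, and the second took 19.4%. HFD replicates 1 to 3 and 4 to 6 stood apart from each other. The rank correlation of a library's deviation with gene GC content was 0.19 to 0.22 in HFD replicates 1 to 3 and -0.22 to -0.13 in replicates 4 to 6, against -0.15 to 0 in the chow libraries. The labels give no batch for this split, and its part in the results was not tested, so results are also given below for each set of 3 HFD libraries against the same 3 chow libraries. HFD replicate 2 carried RNA of pancreatic acinar cells, with a summed level of 9617 CPM (counts scaled to library size) for 18 acinar markers against 70.3 to 431 CPM in chow, and none of those markers passed the test. Hepatocyte markers summed to 115555 to 136135 CPM in chow and 96894 to 166491 CPM in HFD, and all 12 of them were detected.

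At 30 min of insulin, 5248 genes, or 37.3% of those tested, differed between the diets at a false discovery rate (FDR) below 0.05 by edgeR's quasi-likelihood test with Benjamini-Hochberg adjustment. Of these, 2822 (20.1%) were higher and 2426 (17.2%) lower on HFD. Higher genes were thus 53.8% of the calls, and 42.2% when length and GC trends were removed and HFD replicates 4 to 6 alone were used. The changes of more than 2-fold were mostly upward, with 1175 genes (8.35%) higher and 275 (1.95%) lower. The libraries of the groups did not overlap for 4520 genes (32.1%). These shares are the background against which each gene list below is read, and the median change over all genes tested was 0.03 on the log2 scale. Set against the same chow libraries, HFD replicates 1 to 3 and HFD replicates 4 to 6 called 2433 genes in the same direction. Among the genes tested in both fits, these are 70.6% of the 3447 called with replicates 4 to 6 and 43% of the 5663 called with replicates 1 to 3.

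**Figure D1:**
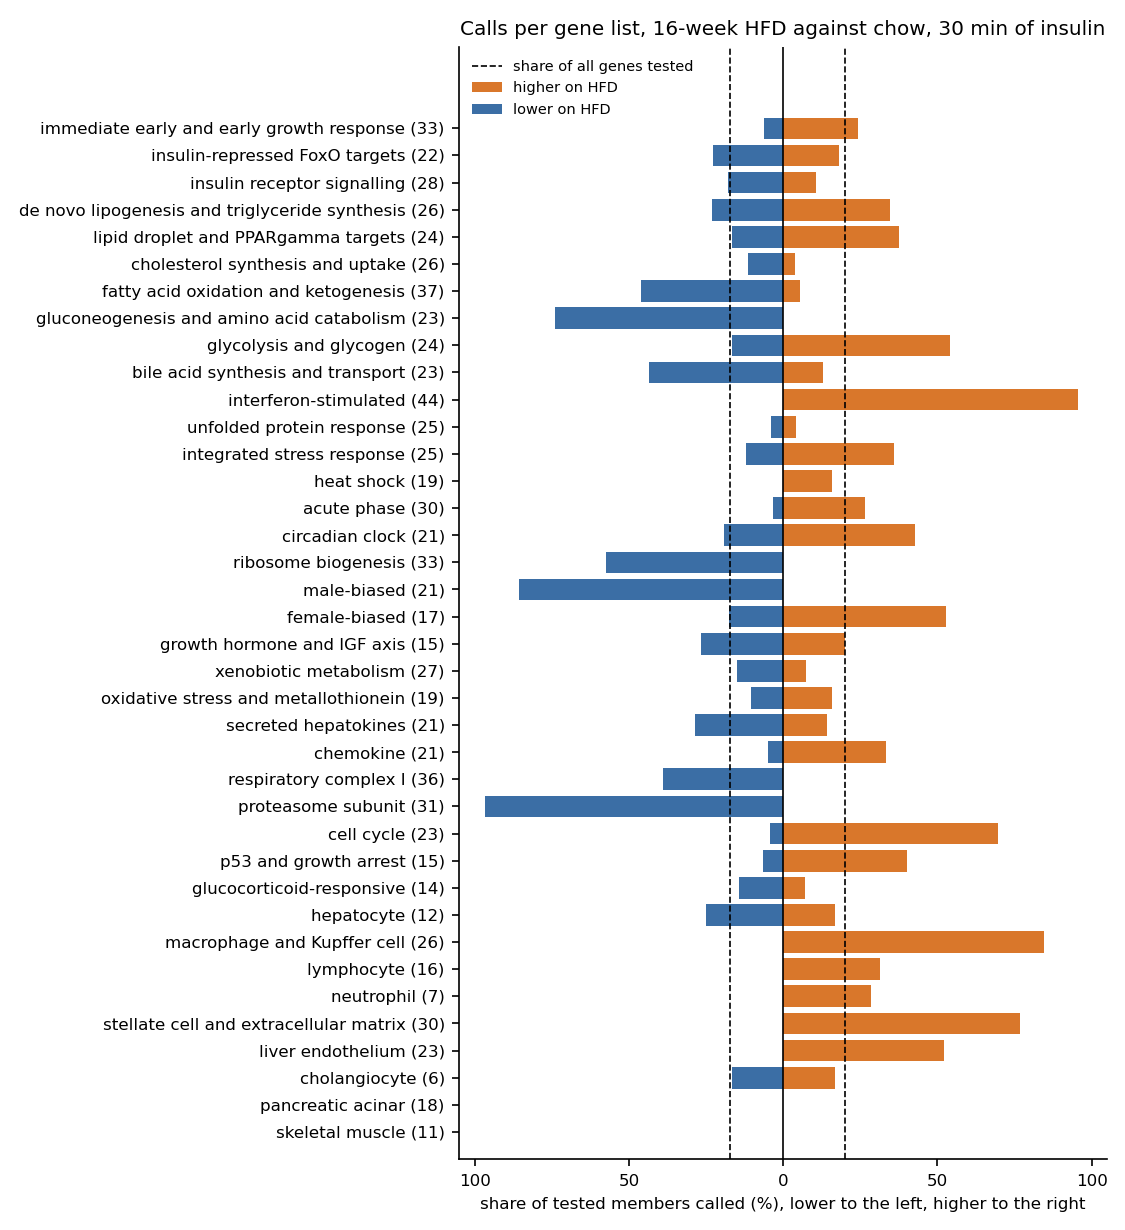
For each gene list with 5 or more tested members (their number in parentheses), the bars give the percentage of tested members called lower (left) and higher (right) on HFD after 30 min of insulin, and the dashed lines mark 17.2% and 20.1%, the shares over all genes tested. The bars of the interferon list (42 of 44 higher) and the proteasome list (30 of 31 lower) are close to full length.

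The genes with the largest increase among those that did not overlap were led by cytochromes of the Cyp2b family, which oxidise steroids and drugs. Cyp2b9 (chr7:26958428-26995679, mm9) was at 0, 0.165 and 0.425 CPM in the chow libraries and at 66.9 (lowest), 245 (median) and 476 CPM (highest) in the HFD libraries, with every HFD library far above every chow library (log2 change 10.38 ± 0.96 SE, adjusted p = 1.68e-09; 9.74 without chow replicate 1 and 11.47 without chow replicate 3). Its neighbour Cyp2b13 had no read in any chow library and 1.85 to 14.2 CPM in HFD, at least 161-fold higher against a floor of 3 counts over the chow group, although it shares sequence with other Cyp2b genes and reads may be misassigned. Rgs16, a regulator of G protein signalling, was at 14.4, 7.33 and 2.93 CPM in chow and at 144, 189 and 226 CPM (lowest, median, highest) in HFD (4.50 ± 0.62, adjusted p = 1.70e-06). Both ranges were far apart for Rgs16, and without chow replicate 1 its change was 5.18. Lgals1, which encodes galectin-1, rose from 3.13 to 6.75 CPM in chow to 24.7 to 57.0 CPM in HFD (3.17 ± 0.42).

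Among the genes with the largest decrease was Moxd1, a monooxygenase-like gene, with 74.4, 37 and 2.02 CPM in the chow libraries and 2 reads in all 6 HFD libraries together. The chow libraries differed widely for this gene, but none came near the HFD level. The cytochrome Cyp4a12b, a male-biased omega-hydroxylase, fell from 187, 163 and 118 CPM in chow to 6.89, 11.3 and 31.5 CPM (lowest, median, highest) in HFD (-3.44 ± 0.33, adjusted p = 3.15e-09). It shares sequence with Cyp4a12a, which fell too (-1.73 ± 0.35), so the reads of this pair may be split unevenly.

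The interferon-stimulated genes rose almost without exception. Interferons signal through transcription factors that bind a DNA motif, the interferon-stimulated response element (ISRE), found upstream of many antiviral genes. Below, 3 promoters of this list are printed because they hold that motif close to the start of a gene that rose with narrow spread; each gives the 250 bases before the RefSeq start (GRCm38.p6), and capitals mark matches to the motif searched, TTTC followed by 2 bases of any kind and TTTC, on either strand, with adjoining matches run together.
Isg15 (chr4:156200819-156201068, minus strand): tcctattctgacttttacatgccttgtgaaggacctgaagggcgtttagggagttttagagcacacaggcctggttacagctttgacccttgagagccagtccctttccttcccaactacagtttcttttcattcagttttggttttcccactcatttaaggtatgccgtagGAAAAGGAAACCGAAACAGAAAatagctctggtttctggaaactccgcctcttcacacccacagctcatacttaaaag
Ifit3 (chr19:34583279-34583528, plus strand): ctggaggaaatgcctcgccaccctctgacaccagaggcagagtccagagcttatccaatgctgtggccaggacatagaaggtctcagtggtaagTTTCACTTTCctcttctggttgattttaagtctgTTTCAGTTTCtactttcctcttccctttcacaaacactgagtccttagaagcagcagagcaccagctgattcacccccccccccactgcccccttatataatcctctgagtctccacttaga
Trim30a (chr7:104465194-104465443, minus strand): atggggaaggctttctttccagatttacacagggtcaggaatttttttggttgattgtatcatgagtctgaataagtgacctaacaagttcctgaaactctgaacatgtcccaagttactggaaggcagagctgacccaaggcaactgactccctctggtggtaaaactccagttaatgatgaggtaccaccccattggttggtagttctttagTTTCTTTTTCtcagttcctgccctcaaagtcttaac

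The Isg15 window holds 3 overlapping matches, starting 78, 72 and 66 bases before the start, the Ifit3 window 2 matches, at 156 and 122 bases, and the Trim30a window 1 match, at 36 bases. A further Trim30a entry in RefSeq has no match in its window. Over promoters of 300 bases (250 before to 50 after the start), 422 of 10952 tested genes (3.85%) held a match, against 17 of the 32 list members with a promoter entry (53.1%). Of the genes called higher 6.49% held one, and of those called lower 2.73%. A match describes the letters and is not a measured binding site.

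Of 44 interferon-stimulated genes, 42 rose and none fell, with a median log2 change of 1.37. Isg15, a ubiquitin-like protein that is attached to other proteins in antiviral states, was at 3.22, 2.68 and 5.37 CPM in chow and at 12.3, 13.7 and 16.2 CPM (lowest, median, highest) in HFD. The HFD libraries lay in a narrow band above all chow libraries, and the change was 1.93 ± 0.27 (adjusted p = 1.84e-06). Ifit3, an inhibitor of viral RNA translation that shares sequence with a neighbouring copy, was at 2.42, 3.38 and 6.65 CPM in chow and at 18.0, 23.3 and 25.0 CPM in HFD (2.43 ± 0.25). Trim30a, a ubiquitin ligase of the tripartite motif family, was at 4.95, 5.93 and 7.07 CPM in chow and at 14.8, 17.1 and 18.4 CPM in HFD (1.49 ± 0.19). In all 3 genes the lowest HFD library was above the highest chow library.

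Irf7, a factor that amplifies interferon production, went from 17.9 to 27.4 CPM in chow to 31.2 to 55.8 CPM in HFD (1.00 ± 0.23). The effector genes Samd9l (1.88 ± 0.20), Ifi44 (2.17 ± 0.27) and Oasl2 (1.92 ± 0.25), all induced by type I interferon, did not overlap between the diets. The guanylate-binding proteins Gbp6 (2.49 ± 0.31) and Gbp10 (3.52 ± 0.43), GTPases that act on intracellular pathogens, also rose, but share sequence with other members of their cluster. With HFD replicates 1 to 3 alone 39 of the 44 rose, with replicates 4 to 6 alone 41, and without insulin 42. The list's rise was thus present in both sets of HFD libraries and before insulin was given.

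**Figure D2:**
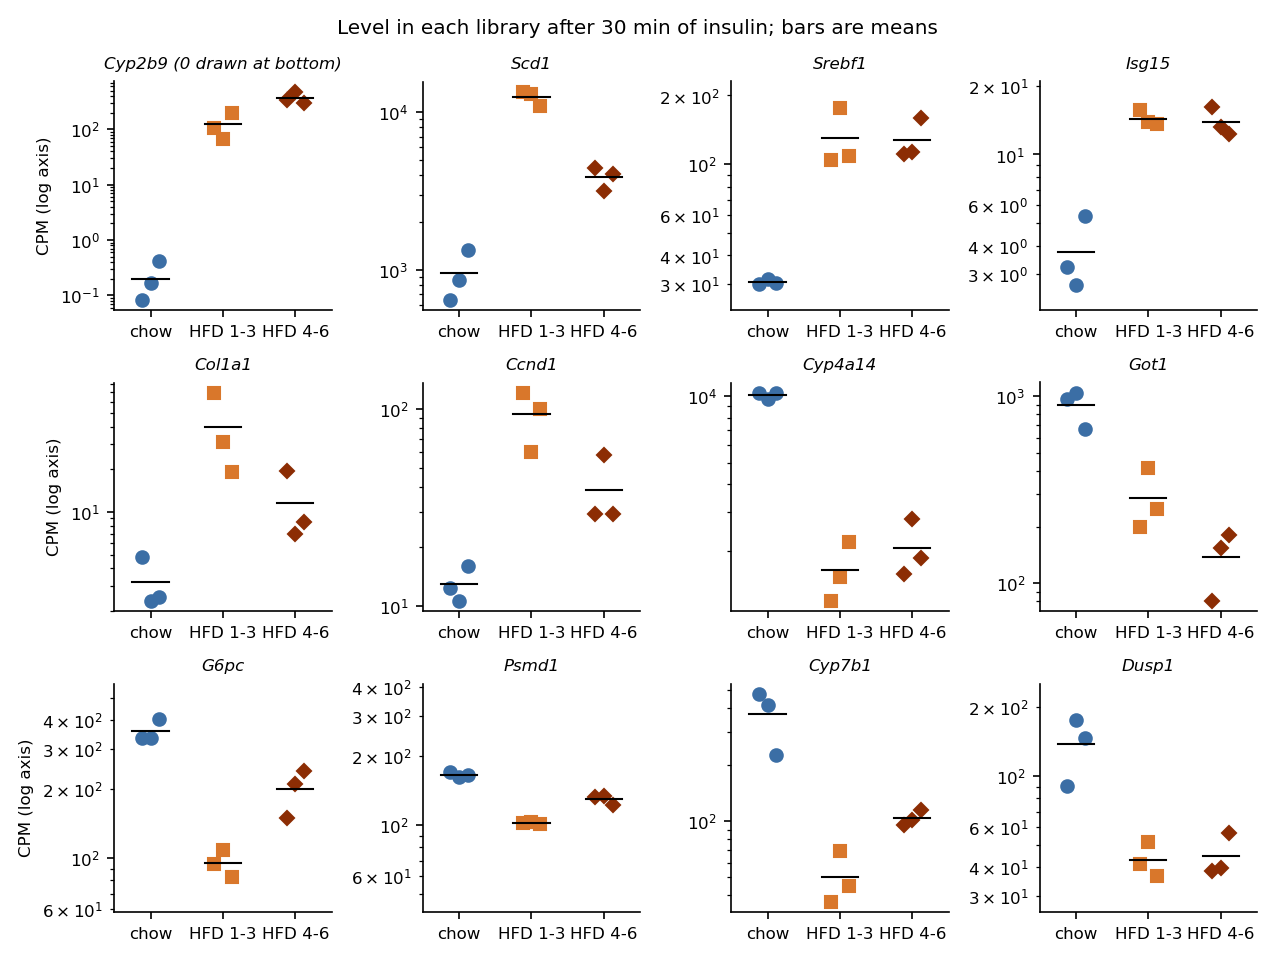
Level (CPM, log axis) of 12 genes in each library after 30 min of insulin, with chow as circles, HFD replicates 1 to 3 as squares, HFD replicates 4 to 6 as diamonds and bars at the means. The 6 HFD libraries lie on one side of the 3 chow libraries in every panel, and the HFD sets lie apart from each other for genes such as Scd1, G6pc, Psmd1 and Cyp7b1.

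Components of the insulin signalling pathway were called below the background rate (28.6% against 37.3%). Of 28 genes, 3 rose and 5 fell (median -0.06), and 1 rose when chow replicate 3 was left out; after length and GC trends were removed from the counts, 2 rose and 12 fell. Irs1, an adaptor that carries the signal from the receptor to phosphatidylinositol 3-kinase, was at 32, 37.6 and 33.1 CPM in chow and at 16.9, 20.2 and 25.4 CPM in HFD (-0.75 ± 0.16, adjusted p = 0.000458). Grb14, an adaptor that inhibits the receptor, was lower too, at 64.1, 64.7 and 66.4 CPM in chow against 35, 43.7 and 46.8 CPM in HFD (-0.61 ± 0.10). The HFD libraries were below all chow libraries for both genes. Sos1, the exchange factor that activates Ras (-0.68 ± 0.09), and Rps6kb1, the S6 kinase downstream of mTORC1 (-0.45 ± 0.08), also fell, while Grb10, another adaptor that inhibits the receptor, rose from 2.58 to 3.30 CPM to 3.81 to 6.46 CPM (0.74 ± 0.19). The receptor gene itself, Insr, was at 203 to 244 CPM in chow and 182 to 211 CPM in HFD and did not pass the test (-0.14 ± 0.10, adjusted p = 0.287). Insr was called lower once length and GC trends were removed (-0.23, adjusted p = 0.00418). Irs2, another substrate of the receptor, whose exons overlap an opposite-strand gene, was at 6.54 to 6.72 CPM in chow and at 3.77 to 9.96 CPM in HFD (-0.05 ± 0.41), its HFD range enclosing all chow values.

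FoxO targets, which insulin normally lowers, were called at about the background rate, with 4 of 22 higher and 5 lower. Without chow replicate 3 the count of higher genes was 2, and with HFD replicates 4 to 6 alone 1 was higher and 3 lower. G6pc, the enzyme that releases free glucose from glucose-6-phosphate, was at 336, 334 and 404 CPM in chow and at 83.0, 129 and 240 CPM in HFD (-1.28 ± 0.30, adjusted p = 0.00131). All HFD libraries were below the chow libraries, with replicates 1 to 3 (83.0 to 108 CPM) below replicates 4 to 6 (150 to 240 CPM); with replicates 4 to 6 alone the change was -0.85 (adjusted p = 0.055). Pck1, which makes phosphoenolpyruvate for glucose production, was at 5706, 5023 and 3931 CPM in chow and at 2390, 2810 and 3586 CPM in HFD (-0.74 ± 0.19, adjusted p = 0.00246). Ppargc1a, a coactivator of gluconeogenic and mitochondrial genes, was lower by -1.08 ± 0.19 in HFD. Igfbp1, a secreted binding protein of the insulin-like growth factors that insulin represses, was at 105 to 123 CPM in chow and 54.2 to 92.3 CPM in HFD, with no overlap, yet it did not pass the test (-0.70 ± 0.43, adjusted p = 0.203). With only the compared groups in the fit, Igfbp1 was called lower (-0.72, adjusted p = 0.00465).

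Genes of gluconeogenesis and amino acid breakdown fell as a list: 17 of 23 were lower and none higher (median -0.63), against 17.2% of all genes lower. Without chow replicate 2, HFD replicate 1 or HFD replicate 3, 1 member was called higher. Got1, the cytosolic aspartate aminotransferase, was at 972, 1043 and 667 CPM in chow and at 80.3, 191 and 413 CPM in HFD (-2.07 ± 0.32, adjusted p = 7.07e-06). Every HFD library was below every chow library, and replicates 4 to 6 were the lowest. The urea cycle enzymes Cps1 (-1.22 ± 0.17) and Arg1 (-1.03 ± 0.10) and the ornithine aminotransferase Oat (-1.13 ± 0.17), members of the list, all fell without overlap. The lysine-degrading Aass (-1.03 ± 0.14) and the tryptophan dioxygenase Tdo2 (-0.82 ± 0.13) were lower too. In the methionine pathway Mat1a, which makes S-adenosylmethionine, fell by 1.01 and the cystathionine lyase Cth by 1.77 on the log2 scale. With HFD replicates 1 to 3 alone 14 members fell and with replicates 4 to 6 alone 16.

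Glycolysis and glycogen genes went largely the other way, with 13 of 24 higher and 4 lower (median 0.48). Pklr, the liver pyruvate kinase, was at 61.8, 57.9 and 59.4 CPM in chow and at 79.1, 129 and 176 CPM in HFD (1.11 ± 0.24, adjusted p = 0.000481), with every HFD library above the chow libraries. Pfkl, the liver phosphofructokinase (0.84 ± 0.11), and Hk1, a hexokinase that is low in hepatocytes (1.19 ± 0.24), also rose, and Gys2, the liver glycogen synthase, fell (-0.76 ± 0.15).

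Lipid synthesis was split between genes that rose and genes that fell. Of 26 genes, 9 were higher and 6 lower (median 0.10), or 5 and 7 with HFD replicates 4 to 6 alone. Scd1 (chr19:44468940-44482199, mm9), the desaturase that makes oleate and palmitoleate, was at 643, 865 and 1341 CPM in chow and at 3161, 7684 and 13445 CPM in HFD (3.11 ± 0.62, adjusted p = 0.000239). HFD replicates 1 to 3 held 10932 to 13445 CPM and replicates 4 to 6 held 3161 to 4435 CPM, so the sets did not overlap each other, although both lay above chow (log2 change 3.73 and 2.03). Srebf1, the transcription factor of lipogenesis (its exons overlap those of an opposite-strand gene), was at 30.1, 31.5 and 30.2 CPM in chow and at 105, 112 and 176 CPM in HFD (2.08 ± 0.27, adjusted p = 7.00e-07). Thrsp, a nuclear protein that promotes lipogenesis, rose from 7.93, 9.84 and 6.59 CPM to 65.8, 115 and 161 CPM (3.85 ± 0.54).

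Further along the pathway, Aacs, which activates acetoacetate for lipid synthesis, rose from 6.28 to 7.70 CPM to 30.9 to 67.9 CPM (2.65 ± 0.28). Fasn, the fatty acid synthase, was at 85.2 to 107 CPM in chow and at 99.3 to 192 CPM in HFD and did not pass the test (0.56 ± 0.23, adjusted p = 0.0545). Fasn was close to the threshold: it was called higher by DESeq2 (adjusted p = 0.0443), with only the compared groups in edgeR's fit (0.0412) and without HFD replicate 6 (0.0276). The acyltransferases that make triglyceride differed in direction: Dgat2 rose (0.69 ± 0.11) and Dgat1 fell (-0.67 ± 0.08), each with no overlap. Insig2, which holds the SREBP factors in the endoplasmic reticulum, fell from 496, 545 and 638 CPM to 154, 219 and 237 CPM (-1.43 ± 0.17, adjusted p = 1.22e-07).

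Lipid droplet genes and targets of PPARgamma included 9 of 24 that rose and 4 that fell. Pparg itself, a nuclear receptor typical of adipose tissue, was at 4.83, 4.98 and 6.17 CPM in chow and at 10.8, 12.3 and 16.3 CPM in HFD (1.30 ± 0.22). Cd36, a fatty acid transporter, was at 56.7, 53.3 and 76.5 CPM in chow and at 202, 256 and 352 CPM in HFD (2.09 ± 0.29). Vldlr, the receptor for very low density lipoprotein, rose from 0.947 to 2.39 CPM to 9.61 to 15.4 CPM (3.03 ± 0.37). The HFD and chow libraries were apart for all 3 genes. Plin4, a coat protein of lipid droplets, rose (1.36 ± 0.25), while the triglyceride lipase Pnpla2 fell (-0.65 ± 0.13). Cidec was at 27.3 to 68.3 CPM in chow and at 19.7 to 93.9 CPM in HFD, which overlap (0.21 ± 0.46).

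Cholesterol genes were called below the background rate (15.4% against 37.3%), with 2 falls of more than 2-fold. Insig2, given above, belongs to this list and had its largest fall (-1.43). Of 26 members, 1 rose and 3 fell, with 1 and 6 in HFD replicates 1 to 3 alone and 3 and 1 in replicates 4 to 6 alone; without chow replicate 1 or 3 none rose, and without HFD replicate 1 or 3, 2 rose. Sqle, the squalene epoxidase, differed between the sets of HFD libraries: it was at 15.8, 18.0 and 11.2 CPM in chow, at 2.16 to 2.36 CPM in HFD replicates 1 to 3 and at 8.14 to 74.0 CPM in replicates 4 to 6.

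Fatty acid oxidation was lower, with 17 of 37 genes down and 2 up (1 up without chow replicate 1 or 3; median -0.36), and 19 down in either set of HFD libraries alone. Cyp4a14 (chr4:115158805-115168746, mm9), a microsomal omega-hydroxylase and a target of PPARalpha, was at 10289, 9695 and 10338 CPM in chow and at 1182, 1709 and 2767 CPM in HFD (-2.45 ± 0.21, adjusted p = 2.16e-10). The chow libraries differed by little and all HFD libraries were far below them. Its relative Cyp4a10, uncertain because of shared sequence, fell by 2.21 on the log2 scale. Ehhadh, the bifunctional enzyme of peroxisomal oxidation, went from 3351, 2707 and 3223 CPM to 388, 553 and 809 CPM (-2.37 ± 0.29). The mitochondrial trifunctional protein subunits Hadha (-0.66 ± 0.09) and Hadhb (-0.72 ± 0.09) fell less, also with no overlap. Ppara, which encodes PPARalpha, was not among the lower genes, at 423 to 465 CPM in chow and 540 to 643 CPM in HFD (0.43 ± 0.15, adjusted p = 0.0246); its call was lost in either set of HFD libraries alone (adjusted p = 0.0680 and 0.0616) and without chow replicate 1 or 3 (0.0752 and 0.0903).

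In bile acid metabolism 10 of 23 genes fell and 3 rose (none rose without chow replicate 3 and 1 without HFD replicate 2). With HFD replicates 4 to 6 alone 6 fell. Cyp7b1, the hydroxylase of the acidic pathway of bile acid synthesis, was at 478, 415 and 226 CPM in chow and at 36.9, 82.3 and 115 CPM in HFD (-2.27 ± 0.29, adjusted p = 4.27e-07). Cyp8b1, the sterol 12-hydroxylase that sets the share of cholic acid, was at 1297, 1268 and 1032 CPM in chow and at 168, 343 and 621 CPM in HFD (-1.79 ± 0.29). The diets did not overlap for either gene. Abcb4, the phospholipid exporter of the bile canaliculus, fell from 672 to 694 CPM to 323 to 447 CPM (-0.90 ± 0.11). Cyp7a1, the rate-limiting enzyme of the classical pathway, was at 303, 250 and 249 CPM in chow and spread from 106 to 487 CPM in HFD (-0.01 ± 0.50).

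Xenobiotic metabolism genes changed below the background rate, with 2 of 27 higher and 4 lower, but 5 higher and 10 lower with HFD replicates 1 to 3 alone and 4 higher and 7 lower once length and GC trends were removed. Of these genes 4 were higher without HFD replicate 4, and 1 without HFD replicate 6 or any one chow library. Cyp3a11, the main drug-metabolising cytochrome of mouse liver, was at 4167, 3956 and 4495 CPM in chow and at 751, 907 and 1458 CPM in HFD (-2.07 ± 0.37, adjusted p = 5.53e-05). Cyp3a25, which shares sequence with other Cyp3a genes, fell as well (-1.41 ± 0.19). Nr1i3, the nuclear receptor CAR, was at 142 to 189 CPM in chow, at 90.0 to 109 CPM in HFD replicates 1 to 3 and at 236 to 257 CPM in replicates 4 to 6, so the HFD sets lay on opposite sides of chow.

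Male-biased liver genes, which pulsatile growth hormone maintains in males, fell almost throughout: 18 of 21 were lower and none higher (median -1.66), 19 with HFD replicates 1 to 3 alone and 16 with replicates 4 to 6 alone. Ugt2b1, a glucuronosyltransferase, was at 571, 574 and 448 CPM in chow and at 128, 196 and 259 CPM in HFD (-1.48 ± 0.17). Cyp2d9 (-1.67 ± 0.25) and the major urinary protein Mup20 (-1.26 ± 0.23), which carries pheromones in urine, also fell, and both share sequence with close relatives. Mup7 was at 9143, 10829 and 2909 CPM in chow and ran from 3.54 to 2835 CPM in HFD, a spread far wider than that of most genes; its change was -6.89 with HFD replicates 1 to 3 and -2.67 with replicates 4 to 6, and -5.29 without HFD replicate 6. With only the compared groups in the fit, its change was -3.6 and its call was lost (adjusted p = 0.0746). Mup7 shares most of its sequence with other Mup genes and overlaps exons of Mup15 on the same strand, so its values are uncertain. Of 17 tested female-biased genes, 9 rose and 3 fell (median 1.10). All 3 falls exceeded 2-fold, and the lowest change in the list was -2.37. With HFD replicates 1 to 3 alone 6 rose and 3 fell, and with replicates 4 to 6 alone 9 and 3. Without chow replicate 1 these counts were 7 and 2. Cyp2b9 and Cyp2b13, described above, are among those that rose. So is Hao2, a hydroxy acid oxidase, which had 1 read in the chow libraries together and 1.43 to 6.75 CPM in HFD.

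Genes of the growth hormone and insulin-like growth factor axis gave 3 higher and 4 lower of 15, but without chow replicate 1 these counts were 0 and 1. Igfbp2, a binding protein of the insulin-like growth factors, was at 954, 976 and 796 CPM in chow and at 135, 255 and 341 CPM in HFD (-1.91 ± 0.29, adjusted p = 7.77e-06), all HFD libraries being lower. Igf1, the liver's main circulating growth factor, was at 505 to 655 CPM in chow and 402 to 477 CPM in HFD (-0.40 ± 0.10), a call that was lost without chow replicate 1 (-0.29, adjusted p = 0.0665). The Igf1 call was also lost in edgeR's fit with length and GC trends removed and HFD replicates 4 to 6 left out (-0.24, adjusted p = 0.249). Ghr, the growth hormone receptor, did not pass the test (0.36 ± 0.16). Ghr was called higher with HFD replicates 4 to 6 alone (0.63, adjusted p = 0.00221), when HFD replicate 1, 2 or 3 was left out (0.0263, 0.0449 and 0.0291) and with length and GC trends removed (0.0414).

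Genes of the proteasome, the complex that degrades ubiquitinated proteins, were lower almost without exception. Of 31 subunits 30 fell, by a small amount each (median -0.42). With HFD replicates 1 to 3 alone 29 fell, with replicates 4 to 6 alone 20, and without chow replicate 1, 21. The base subunit Psmd1 was at 171, 163 and 165 CPM in chow and at 101, 113 and 134 CPM in HFD (-0.52 ± 0.10, adjusted p = 7.86e-05). The ubiquitin receptor Psmd4 was at 142, 118 and 132 CPM in chow and at 78.2, 81.2 and 87.1 CPM in HFD (-0.68 ± 0.11), and the ATPase Psmc4 fell by 0.56. The groups did not overlap for any of these 3 genes.

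Ribosome biogenesis genes fell in 19 of 33 cases and none rose (median -0.27). The gene of the nucleolar protein Nop58, a core protein of the box C/D particles that guide ribosomal RNA methylation, was at 29.8, 24.1 and 30.4 CPM in chow and at 13.4, 17.1 and 18.7 CPM in HFD (-0.75 ± 0.10, adjusted p = 4.07e-07). Wdr43 (-0.48 ± 0.06) and Ppan (-0.80 ± 0.12), which act in ribosomal RNA processing, were lower too. Fbl, the methyltransferase of the same particles as Nop58, did not pass the test (-0.14 ± 0.10). Respiratory complex I gave 14 of 36 genes lower and none higher (median -0.25), but this count rested on single libraries. It was 3 without chow replicate 1 and 9 without HFD replicate 1, and it was 16 with HFD replicates 1 to 3 alone and 2 with replicates 4 to 6 alone.

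The unfolded protein response, which the endoplasmic reticulum mounts against misfolded proteins, showed 1 of 25 genes higher (none without any one chow library or HFD replicate 2, 5 or 6) and 1 lower at 30 min, whereas 13 were higher and 1 lower on HFD without insulin; none of these genes passed the test of the difference between the effects. Hspa5, its main chaperone, was at 925, 1003 and 756 CPM in chow and at 574 to 1019 CPM in HFD (-0.13 ± 0.25). Integrated stress response genes, targets of Atf4, gave 9 of 25 higher and 3 lower, with 12 and 2 in HFD replicates 1 to 3 alone and 4 and 6 in replicates 4 to 6 alone. Chac1, which degrades glutathione, rose from 0.845, 0.577 and 0.266 CPM to 5.07, 6.51 and 10.5 CPM (3.64 ± 0.57). Mthfd2, a mitochondrial folate enzyme, rose with HFD replicates 1 to 3 (2.88) and was not called with replicates 4 to 6 (0.36, adjusted p = 0.55) or with only the compared groups in the fit (2.09, adjusted p = 0.0701). Asns, the asparagine synthetase, was at 11.9 to 27.7 CPM in chow, at 6.72 to 10.5 CPM in HFD replicates 1 to 3 and at 0.467 to 0.706 CPM in replicates 4 to 6 (-2.02 ± 0.68, adjusted p = 0.0192). The change in Asns was -5.06 with replicates 4 to 6 alone and -1.09 with replicates 1 to 3 alone, where the call was lost (adjusted p = 0.184). It was also lost without chow replicate 1 (-1.66, adjusted p = 0.111) and with only the compared groups in the fit (-2.03, adjusted p = 0.0823). Of 19 heat shock genes 3 rose and none fell, with 6 in HFD replicates 1 to 3 alone and 1 in replicates 4 to 6 alone.

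Of 30 acute phase genes 8 rose and 1 fell, so that 30.0% were called, below the 37.3% of all genes tested. With HFD replicates 1 to 3 alone 8 rose and 2 fell, and with replicates 4 to 6 alone 10 and 1. Saa4, a constitutive serum amyloid A, was at 263, 268 and 127 CPM in chow and at 520, 942 and 1315 CPM in HFD (2.03 ± 0.27, adjusted p = 1.03e-06). Steap4, a metalloreductase induced by inflammation, rose from 53.4 to 81.5 CPM to 209 to 380 CPM (2.11 ± 0.34), and Il1rn, the interleukin-1 receptor antagonist, from 2.46 to 3.38 CPM to 8.11 to 16.9 CPM (1.98 ± 0.28). Both were without overlap. Chemokines gave 7 of 21 tested members higher and 1 lower, with 10 higher in HFD replicates 1 to 3 alone and 5 in replicates 4 to 6 alone. The share of chemokines called, 38.1%, was near the background. Cxcl9 (2.51 ± 0.37) and Cxcl10 (2.32 ± 0.37), which attract T cells and are induced by interferon, and Ccl2 (2.94 ± 0.67), which attracts monocytes, rose, Ccl2 from 0.121 to 0.372 CPM to 0.628 to 2.95 CPM (3.60 without chow replicate 3). Cxcl12 fell (-0.58 ± 0.12).

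The clock genes gave 9 of 21 higher and 4 lower, or 5 and 2 without chow replicate 3. Arntl, the core activator, was at 10.4, 11.4 and 12.8 CPM in chow and at 3.36, 3.90 and 4.94 CPM in HFD (-1.53 ± 0.29, adjusted p = 0.000150). Per3, a period gene, was at 10.5, 8.77 and 6.54 CPM in chow and at 22.7, 29.6 and 36.8 CPM in HFD (1.75 ± 0.35), Per2, another period gene, rose by 1.28 ± 0.26, and the transcription factor Dbp, whose exons overlap an opposite-strand gene, by 1.93 ± 0.47. The repressor Nr1d1 did not pass the test (0.22 ± 0.21). The labels used here give no clock time of collection for each sample, and its part in these values was not tested.

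Markers of macrophages were higher on HFD in 22 of 26 cases and lower in none (median 1.23). Their summed level was 422 to 609 CPM in chow, 1236 to 1924 CPM in HFD replicates 1 to 3 and 784 to 1005 CPM in replicates 4 to 6, so all HFD libraries were above all chow libraries. The number called was 23 with replicates 1 to 3 alone, 7 with replicates 4 to 6 alone, 14 without chow replicate 1, and 4 without insulin. The median without insulin, from 3 HFD and 3 chow libraries, was 0.44. None of these markers passed the test of the difference between the effects with and without insulin. Mpeg1, a pore-forming protein of macrophages, was at 40.9, 52.2 and 58.2 CPM in chow and at 121, 163 and 257 CPM in HFD (1.75 ± 0.35). Cx3cr1 (2.58 ± 0.45) and Ccr2 (2.15 ± 0.47), chemokine receptors of monocyte-derived cells, and Itgax, the integrin CD11c (2.59 ± 0.48), also rose. Mmp12, the macrophage elastase, was at 0.242 to 0.288 CPM in chow and at 1.45, 6.12 and 30.2 CPM in HFD (5.12 ± 0.84, or 4.28 without HFD replicate 1). Macrophages also express the interferon-stimulated genes and chemokines above, and the part of the macrophage markers in their rise was not tested.

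Markers of stellate cells and matrix rose in 23 of 30 cases (median 1.03), 21 with HFD replicates 1 to 3 alone and 14 with replicates 4 to 6 alone. Their summed level was 610 to 635 CPM in chow, 846 to 1320 CPM in HFD replicates 1 to 3 and 669 to 927 CPM in replicates 4 to 6. Col1a1, a chain of type I collagen, was at 4.83, 2.35 and 2.5 CPM in chow and at 6.94, 19.4 and 69.4 CPM in HFD (2.99 ± 0.59, adjusted p = 0.000209), with the highest value in HFD replicate 1, without which the change was 2.40. Col3a1 rose from 15.0, 12.2 and 11.3 CPM to 25.3, 57.3 and 144 CPM (2.35 ± 0.44). Sparc, a matrix-binding glycoprotein, rose by 0.98 ± 0.17. Endothelial markers were higher in 12 of 23 cases, but in 4 without chow replicate 1. Of lymphocyte markers 5 of 16 rose (3 without chow replicate 1, 2 without chow replicate 2). With HFD replicates 1 to 3 alone 5 lymphocyte markers rose, with replicates 4 to 6 alone 1, and without insulin none. Their median without insulin was 0.34, and none passed the test of the difference between the effects. Adipocyte markers summed to 0.865 to 7.12 CPM in chow, 4.44 to 6.42 CPM in HFD replicates 1 to 3 and 27.1 to 56.4 CPM in replicates 4 to 6. Of 4 adipocyte markers tested, Cfd passed the test, and it did so with replicates 4 to 6 alone (4.08) and not with replicates 1 to 3 alone (0.93, adjusted p = 0.40).

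Secreted hepatokines gave 3 of 21 genes higher and 6 lower, among the latter Rbp4, the plasma carrier of retinol, at 4509, 4366 and 3911 CPM in chow and at 2097, 2408 and 2703 CPM in HFD (-0.81 ± 0.11, adjusted p = 1.34e-06). Fst, the activin antagonist follistatin, fell from 2.55 to 4.20 CPM to 0.734 to 1.72 CPM (-1.39 ± 0.31). Of 19 genes of oxidative stress and metallothioneins 3 rose and 2 fell, but none rose or fell without chow replicate 2, 1 rose without chow replicate 3, none fell without chow replicate 1, and 1 fell without HFD replicate 1, 3, 4 or 6. In the oxidative stress list 3 rose with HFD replicates 1 to 3 alone and none with replicates 4 to 6 alone, and 2 fell in each. Glucocorticoid-responsive genes gave 1 of 14 higher and 2 lower. With HFD replicates 1 to 3 alone 3 were higher and 2 lower, and with replicates 4 to 6 alone 0 and 1. None was higher without chow replicate 1 or 3 or without HFD replicate 1, 2, 3 or 6, and 1 was lower without any one chow library or without HFD replicate 1, 3 or 4. Of the remaining markers, 2 of 12 hepatocyte genes rose and 3 fell (1 without chow replicate 1), 2 of 7 neutrophil genes rose (none without chow replicate 1, chow replicate 2 or HFD replicate 2, and 1 without chow replicate 3 or HFD replicate 4), cholangiocyte genes gave 1 of 6 in each direction, and none of 11 muscle genes passed. The neutrophil count was 2 with HFD replicates 1 to 3 alone and 0 with replicates 4 to 6 alone. Both erythroid markers tested rose, and 4 globin genes had no read in any of the 9 libraries. Exons of Hba-a1 and Hba-a2, and of Hbb-b1 and Hbb-b2, overlap on the same strand. The missing reads therefore do not show that globin RNA was absent.

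**Figure D3:**
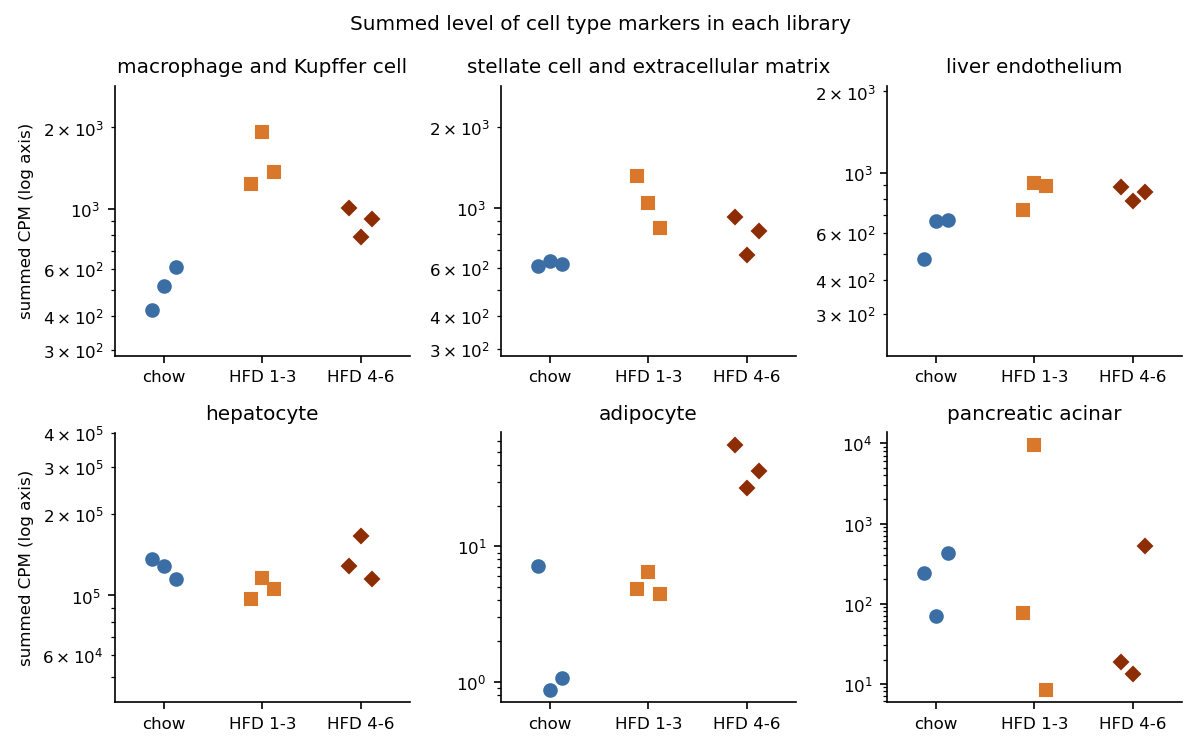
Summed level (CPM, log axis) of the markers of 6 cell types in each library after 30 min of insulin, with chow as circles and HFD replicates 1 to 3 and 4 to 6 as squares and diamonds. All HFD libraries lie above the chow libraries for macrophage, stellate and endothelial markers, hepatocyte markers overlap, and HFD replicate 2 holds 9617 CPM of acinar markers.

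Cell cycle genes rose in 16 of 23 cases and fell in 1 (median 1.23), and none fell without chow replicate 1 or 2 or HFD replicate 6. With HFD replicates 1 to 3 alone 17 were higher, and with replicates 4 to 6 alone 10. Without insulin 4 were called higher, and the median was 0.86. None of these genes passed the test of the difference between the effects with and without insulin. Ccnd1, the cyclin of early G1, was at 12.4, 10.6 and 15.9 CPM in chow and at 29.1, 59.2 and 120 CPM in HFD (2.35 ± 0.36, adjusted p = 6.31e-06). Mki67, a marker of dividing cells, was at 1.13, 1.44 and 1.28 CPM in chow and at 2.70, 7.91 and 14 CPM in HFD (2.65 ± 0.52). All HFD libraries were above the chow libraries for both genes, and the topoisomerase Top2a was higher too (2.39 ± 0.47). Of 15 p53 targets, 6 rose and 1 fell (none without chow replicate 2 or 3 or HFD replicate 3), with 9 higher in HFD replicates 1 to 3 alone and 3 in replicates 4 to 6 alone. Eda2r, a death receptor of the ectodysplasin family, rose from 0.403, 0.206 and 0.532 CPM to 2.00, 3.54 and 5.07 CPM (3.19 ± 0.47), and Ccng1, a cyclin induced by p53, rose by 0.92 ± 0.11.

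Immediate early genes are the first to respond to growth factors, and insulin itself induces several. Of 33, 8 were higher on HFD and 2 lower at 30 min (5 higher without chow replicate 1, chow replicate 2 or HFD replicate 1, and 1 lower without chow replicate 3). In all 30.3% were called, below the 37.3% of all genes tested. With HFD replicates 1 to 3 alone 10 were higher and 3 lower, and with replicates 4 to 6 alone 4 and 3. Dusp1, the phosphatase that switches off MAP kinases, was at 90.9, 176 and 146 CPM in chow and at 36.6, 40.4 and 56.6 CPM in HFD (-1.64 ± 0.41, adjusted p = 0.00203), with no overlap. Nr4a1, an orphan nuclear receptor of the fasting and stress response, was at 4.19, 13.4 and 42.8 CPM in chow and at 2.43, 4.20 and 7.09 CPM in HFD (-2.24 ± 0.49). Its chow libraries were widely spread and overlapped the HFD libraries, and without chow replicate 3 its change was -1.06 (adjusted p = 0.116). Klf10, an early gene that responds to glucose and TGFbeta, rose from 8.69, 10.3 and 8.72 CPM to 20.1, 25.5 and 35.4 CPM (1.53 ± 0.27), and Maff (2.30 ± 0.42) and Egr2 (2.88 ± 0.57), both transcription factors, rose from 2.18 to 2.31 CPM and from 0.0824 to 0.242 CPM in chow. Fos was at 2.78 to 6.12 CPM in chow and 4.49 to 9.57 CPM in HFD and Jun at 23.6 to 48.7 CPM and 27.8 to 53.2 CPM, and neither passed the test (0.49 ± 0.45 and 0.22 ± 0.35).

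**Figure D4:**
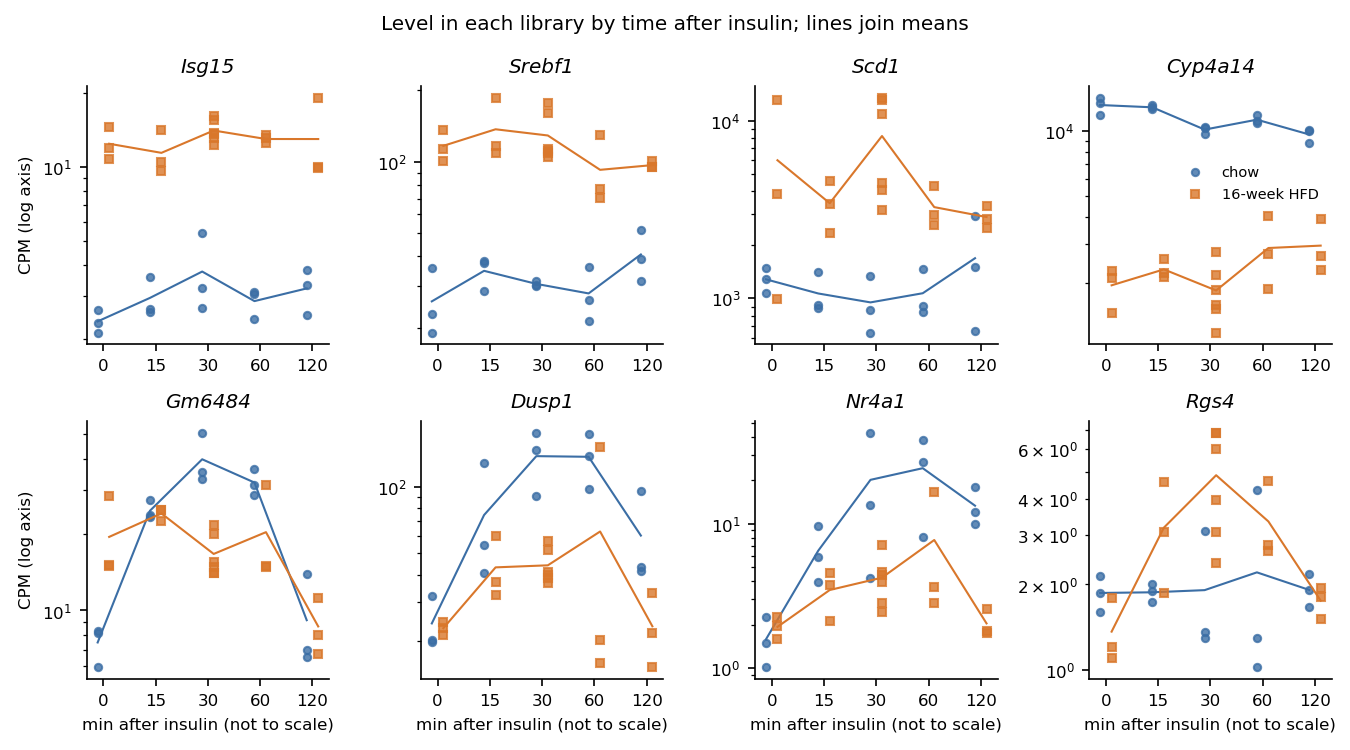
Level (CPM, log axis) of 8 genes in each library at 0, 15, 30, 60 and 120 min after insulin (spacing not to scale), with chow as circles, 16-week HFD as squares and lines joining the means. Isg15, Srebf1 and Cyp4a14 keep the diets apart at 0 and 30 min, while for Gm6484, Dusp1 and Nr4a1 the chow mean is above the HFD mean at 30 min.

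The other time points share no library with the 30 min comparison. Of the 5248 genes called at 30 min, 92.4% had the same sign without insulin, 93.8% at 15 min, 95.2% at 60 min and 93.9% at 120 min, against 75.6% to 79.4% over all genes tested. Fewer also passed the test there in the same direction: 53.3% without insulin, 46.4% at 15 min, 45.1% at 60 min and 51.9% at 120 min. Across all genes, which are not independent replicates, Pearson's r between the diet effects at 30 min and at another time was 0.48 to 0.73. In all, 4539 genes (32.3%) were called without insulin, 3438 (24.4%) at 15 min, 3155 (22.4%) at 60 min and 3962 (28.2%) at 120 min. Of the 5248 genes, 1205 were called in the same direction at all 5 times, 543 higher and 662 lower. The genes called with opposite signs numbered 16 between 30 and 0 min, 10 between 30 and 15 min, 0 between 30 and 60 min and 20 between 30 and 120 min.

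Whether the diet effect after 30 min of insulin differed from that without insulin was tested as the difference between the effects, which uses 6 further libraries. No gene of 14067 passed FDR below 0.05 by edgeR's quasi-likelihood test, while 2022 (14.4%) had an unadjusted p below 0.05, and DESeq2 called 112 of 12306 genes (0.91%). The count was 38 without chow 30 min replicate 3, 59 without basal HFD replicate 3 and 1 without chow 30 min replicate 1. The gene with the smallest p was Gm6484 (chr9:21639954-21641791, mm9), the locus of Angptl8, a hormone-like inhibitor of lipoprotein lipase that insulin induces. It was at 33.2, 35.3 and 50.7 CPM in chow and at 14.1, 15.2 and 21.9 CPM in HFD at 30 min, so that HFD was lower (-1.25 ± 0.31, adjusted p = 0.00192), whereas without insulin HFD was higher (1.4 ± 0.39, adjusted p = 0.00532). The difference between these effects was -2.65 ± 0.50 on the log2 scale (adjusted p = 0.0805 by edgeR), which misses the threshold. The locus lies within a gene on the opposite strand, and the kit does not mark strand.

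Rgs4, the regulator of G protein signalling named in the series title (chr1:171671608-171677773, mm9), was at 1.29, 1.36 and 3.08 CPM in chow and at 2.39, 4.99 and 6.87 CPM (lowest, median, highest) in HFD at 30 min. The highest chow library lay above the lowest HFD library, and the gene passed the test (1.37 ± 0.36, adjusted p = 0.00355). Without insulin its diet effect was -0.46 ± 0.42 and did not pass (adjusted p = 0.432). The difference between these effects was 1.83 ± 0.55, which did not pass the test over all genes (adjusted p = 0.148 by edgeR).

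**Figure D5:**
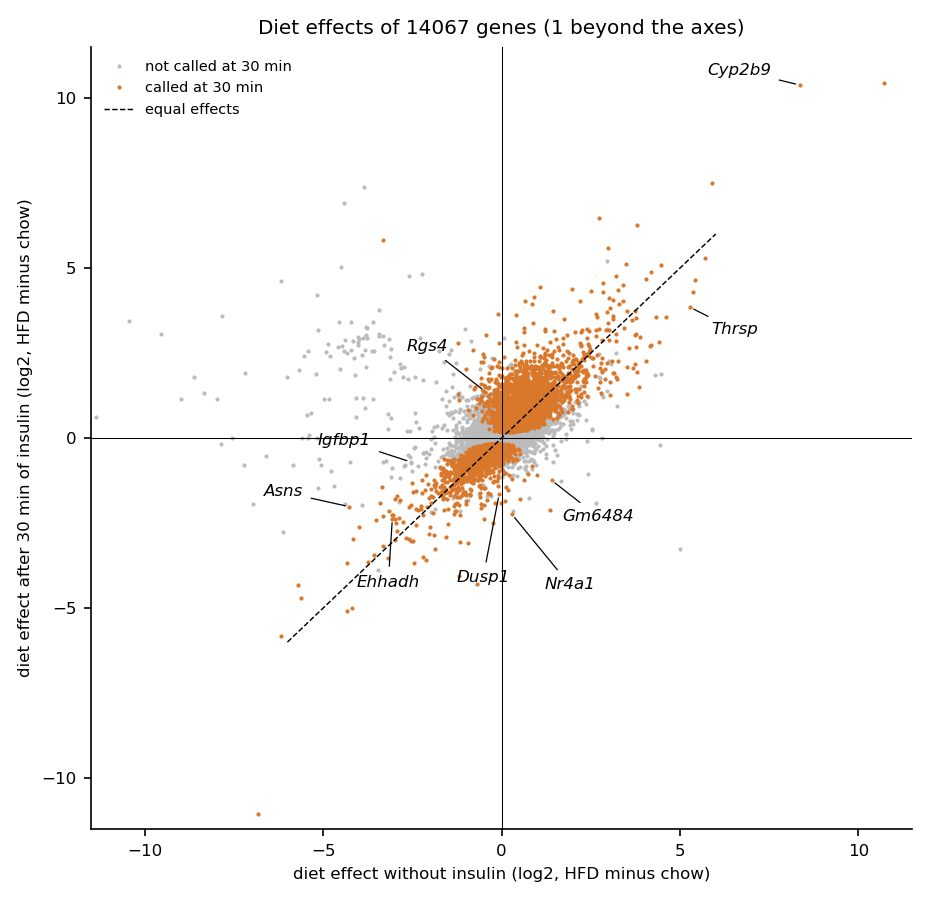
Diet effect (log2, HFD minus chow) of each of 14067 genes without insulin (x axis) and after 30 min of insulin (y axis), with genes called at 30 min in orange and the dashed line marking equal effects. Most called genes lie in the quadrants of equal sign, while Gm6484 and Rgs4 lie in the quadrants of opposite sign.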

How the data were processed

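Gene-level read counts of the 45 libraries were used as deposited. Per the labels, reads came from an Illumina TruSeq mRNA kit, which does not mark strand, and the submitters' processing notes name TopHat 1.4.0, HTSeq and the mm9 build. Deposited normalised tables were not used, since each diet had been normalised separately. Counts were tested with edgeR 4.0.16 (R 4.3.3): genes passing a minimum count of 10 were kept, libraries scaled by TMM, and a quasi-likelihood model with one coefficient per group fitted to all 45 libraries, with Benjamini-Hochberg adjustment over 14067 genes and a threshold of 0.05. Log2 changes are HFD minus chow with standard errors, and CPM are counts scaled to the effective library size. In simulated data with 200 changed genes among 13971, 90% of 2-fold and 53% of 1.5-fold changes were recovered, and 5.92% of calls were false. These shares describe the simulated data only, in which far fewer genes changed than the 5248 called here. Recovery among genes of few reads, or with HFD libraries that split into sets, was not tested. No libraries agreed within sampling noise.

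Named genes are the 12 largest changes per direction without overlap at 5 CPM or more, the first 3 members and up to 6 of the called members with the smallest adjusted p of each of the 40 lists, the 8 highest called genes, the 8 smallest p of the difference, and Rgs4, which was added because the series title names it; the text gives a subset of these, and some of these genes are not reported here. Genes sharing 20% or more of their 40-base words with another gene are called uncertain. Dbp, Hadha, Irs2, Nr1i3, Plin4 and Srebf1 have exons that overlap an opposite-strand gene. The members and lists were chosen with earlier results of these data known. Sequences are from RefSeq (GRCm38.p6), where 10952 of the tested genes had a promoter entry. Alternatives were DESeq2 1.42.0, other scaling and filters, removal of length and GC trends, a replicate term, a stricter threshold and left-out libraries.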

Additional observations from a re-analysis of the deposited data

Results flagged for a closer look

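Among the 123 genes given in the report, 5 had 1 HFD library at 30 min that lay far from the others, by a gap that exceeded Dixon's critical value at the 95% level (a rule that flags about 1 in 20 groups by chance). HFD replicate 5 was the highest for the sterol gene Sqle, at 74.0 CPM against 14.7 CPM in the next library. The same library was the highest for Psmd4, at 87.1 CPM against 81.5 CPM, a gap that is small beside the distance to chow. HFD replicate 1 was the highest for Itgax, at 10.6 CPM against 4.74 CPM, and for Mmp12, at 30.2 CPM against 9.02 CPM. HFD replicate 6 was the highest for Mup7, at 2835 CPM against 518 CPM. None of these was tested for a cause.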

How the results depend on the processing

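For the diet effect at 30 min, 5248 genes were called as reported, 5350 with DESeq2, 5282 with RLE scaling, 4553 with only the compared groups in the fit and 5710 with the replicate number as a block. Same-numbered chow and HFD libraries correlated at -0.04, -0.19 and 0.03, which gave no sign that the numbers pair samples. So few values cannot exclude pairing. Replicate numbers 4 to 6 occur only in the HFD group at 30 min, so the block in effect leaves those libraries out. The block is therefore not a check separate from the fit without HFD replicates 4 to 6, which called 5709 genes. With the block in edgeR's fit, Asns (-1.17, adjusted p = 0.156), Cfd (1.08, 0.322) and Ppara (0.39, 0.0658) were not called. Called genes fell to 3451 without HFD replicates 1 to 3 (1648 higher) and to 3343 at a threshold of 0.01 (1734 higher, 1609 lower); with length and GC trends removed and without HFD replicates 1 to 3, 1792 were higher. Leaving out single libraries gave 3695 (without chow replicate 1) to 5413 calls, 1961 to 2913 higher and 1734 to 2500 lower. Of the 109 genes given in the report that passed the test, 100 passed in the same direction under all 20 alternatives that kept the threshold. Many of these genes were named for a small adjusted p or a large change here, so this share does not describe all calls. Of all 5248 calls, 2995 were shared in the same direction without HFD replicates 1 to 3, and 3600 without chow replicate 1. Nr1i3 and Sqle, not called as reported, were called lower without HFD replicates 4 to 6 (-0.68 and -2.73), with the replicate block (-0.69 and -2.72), with trends removed and the block (-0.68 and -2.75), and with trends removed and without HFD replicates 4 to 6 (-0.68 and -2.76). The cause was not tested.

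The difference between the diet effects with and without insulin, with 0 calls as reported, gave 24 calls with the replicate block (10 higher, 14 lower), 7 with only the compared groups (3 and 4), 152 with trends removed and the block (49 and 103), 35 without HFD replicates 4 to 6 (11 and 24), 234 without HFD replicates 1 to 3 (85 and 149), 182 with trends removed and without HFD replicates 4 to 6 (53 and 129), 11 with trends removed and without HFD replicates 1 to 3 (0 and 11), and 112 with DESeq2 (43 and 69). Single libraries left out gave 0 to 59 calls, 0 to 31 higher and 0 to 30 lower. The cause was not tested. In the simulated data, which had 3 chow libraries, changes of 1.5-fold were often missed. Genes of a few CPM are limited by their reads.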
